A study of Mus musculus with 13 samples.

Results

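The genes described here are 8 genes of cholesterol synthesis, Hmgcs1, Idi1, Fdps, Fdft1, Sqle, Lss and Cyp51, which encode enzymes, and Srebf2, which encodes their main transcriptional activator. They were given as a list of symbols, and each was found by its Entrez identifier among the 23366 genes of an RNA sequencing table, so 8 of 8 were measured. The list had been put together as genes of cholesterol synthesis and uptake, but none of the 8 is a receptor or carrier for lipoproteins, and uptake is described further on from a separate list. The values are log2 RPKM (read density per length of transcript and per library size, on a log2 scale), so that a difference of 1 is a doubling, and levels of different genes can be set side by side because RPKM is per length.

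The libraries came from whole pancreas of 13 female mice, 1 library a mouse. All 3 groups carried the same reprogrammable background, i4F-B, in which doxycycline switches on the factors Oct4, Sox2, Klf4 and Myc (OSKM). The study calls the inducible cassette ubiquitous, states that it is inserted in the Pparg gene, and reports that its expression is uneven among cell types. The young group held 4 mice of 13 weeks and the old group 5 mice of 55 weeks, and neither received doxycycline. The old-OSKM group held 4 mice that drank doxycycline for 1 week and then recovered for 2 weeks, and that were 58 weeks old by their labels, so treatment and 3 further weeks of age cannot be told apart. Old mice given doxycycline without the cassette were not analysed here, so doxycycline and OSKM cannot be told apart either. The doxycycline water also held sucrose, and the study does not state that untreated mice drank it, so sucrose cannot be told apart from treatment. The study describes the cassette as expressed widely in acinar cells and not in most endocrine cells. Acinar enzyme genes were abundant in every library, with a summed level of 12630 to 14228 RPKM over 15 markers. In a bulk tissue, fewer cells of a type and less RNA per cell cannot be told apart.

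Animal cells build cholesterol from acetyl-CoA through mevalonate, isoprenoid diphosphates, squalene and lanosterol. When membrane sterol is low, the escort protein SCAP carries the SREBF2 product from the endoplasmic reticulum to the Golgi, where proteases release its active part, which switches on the genes of nearly every step. INSIG proteins hold SCAP back when sterol is plentiful. Acinar cells, which fill most of the pancreas, use large amounts of membrane for zymogen granules, and cells can also take up cholesterol from lipoproteins instead of making it.

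Srebf2 lies on chromosome 15 at 82147269 to 82205379 (GRCm38.p6, the assembly also called mm10), Hmgcs1 on chromosome 13 at 119690351 to 119708260, Idi1 on chromosome 13 at 8885606 to 8892396 and Fdps on chromosome 3 at 89093588 to 89101967. Fdft1 lies on chromosome 14 at 63145150 to 63181687, Sqle on chromosome 15 at 59315092 to 59331193, Lss on chromosome 10 at 76531565 to 76557139 and Cyp51 on chromosome 5 at 4080674 to 4104697. The annotated span of Fdft1 overlaps that of Ctsb by 774 bases and the span of Lss overlaps 4930483K19Rik by 11269 bases, and because the library kit did not keep strand, reads in those overlaps cannot be assigned with certainty. Srebf2 hosts the microRNA gene Mir33 within an intron.

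The promoters are shown because the shared activator acts there. RefSeq promoter sequences (GRCm38.p6) were matched for 5 of the 8 genes, Srebf2, Hmgcs1, Cyp51, Lss and Idi1. Both strands of the 250 bases before each annotated start were searched for TCACCCCA and TCACCTCA, written forms of the sterol regulatory element that SREBP proteins bind, for the CCAAT box bound by NF-Y, and for the GC box GGGCGG bound by SP1. The start used for Lss lay inside the gene span given above, since its window, chr10:76531355-76531604, ran past base 76531565. The 3 promoters that held a sterol element match follow, 5′ to 3′ on the strand of the gene, ending at the base before the annotated start. Capitals mark the sterol element letters and the CCAAT box, which reads ATTGG where it lies on the opposite strand.
Srebf2, chr15:82147019-82147268, plus strand: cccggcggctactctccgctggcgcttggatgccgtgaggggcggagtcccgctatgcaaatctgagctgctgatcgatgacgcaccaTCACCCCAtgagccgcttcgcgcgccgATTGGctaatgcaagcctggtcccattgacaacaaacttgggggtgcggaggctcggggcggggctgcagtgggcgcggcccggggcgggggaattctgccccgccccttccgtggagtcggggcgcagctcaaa
Hmgcs1, chr13:119690101-119690350, plus strand: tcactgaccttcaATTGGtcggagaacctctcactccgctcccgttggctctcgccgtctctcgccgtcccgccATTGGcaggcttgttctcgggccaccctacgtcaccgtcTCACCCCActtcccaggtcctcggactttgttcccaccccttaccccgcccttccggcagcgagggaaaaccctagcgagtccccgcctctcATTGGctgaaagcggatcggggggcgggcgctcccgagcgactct
Cyp51, chr5:4104698-4104947, minus strand: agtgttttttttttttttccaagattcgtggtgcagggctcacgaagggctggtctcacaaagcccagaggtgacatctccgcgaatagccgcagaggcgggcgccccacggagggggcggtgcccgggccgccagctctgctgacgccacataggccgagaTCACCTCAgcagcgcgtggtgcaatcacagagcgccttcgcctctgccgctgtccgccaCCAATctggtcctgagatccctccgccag

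Srebf2 and Hmgcs1 held TCACCCCA, at -162 to -155 and at -137 to -130 counted from the annotated start. Cyp51 held TCACCTCA at -88 to -81. Either form was present in 2.27% of 32851 mouse promoters of the same length. Lss and Idi1 held neither form in this window. A CCAAT box was present in 5 of the 5 windows and in 33.8% of all promoters, with 3 copies in Hmgcs1 and 2 in Idi1. The GC box was likewise present in 5 of 5, against 32.7% of all promoters. These matches describe letters and do not show binding.

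Averaged over the 13 mice, the 8 genes were expressed at moderate levels, from the 63.4th to the 86.5th percentile of all genes. Fdps was highest at 1.48 ± 0.54 log2 RPKM (mean ± SD, n = 13 mice), followed by Fdft1 at 1.31 ± 0.17, Srebf2 at 1.10 ± 0.08 and Hmgcs1 at 1.04 ± 0.20. Sqle stood at 0.73 ± 0.25, Idi1 at 0.43 ± 0.32, Lss at 0.17 ± 0.23 and Cyp51, the lowest, at -0.05 ± 0.23. Neighbours in this order were not always separated. Fdps was above Fdft1 in 8 of 13 mice and Srebf2 above Hmgcs1 in 7 of 13, differences smaller than their spread between mice (0.18 ± 0.46 and 0.06 ± 0.18, mean ± SD of the log2 difference). Lss exceeded Cyp51 in 10 of 13 mice by 0.21 ± 0.21. The clearest step lay between Hmgcs1 and Sqle, with Hmgcs1 higher in 13 of 13 mice by 0.31 ± 0.18.

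No gene of the 8 differed between age or treatment groups beyond the spread between mice. In each comparison 0 of 8 met the rule of the study, a fold change over 1.5 with a raw p under 0.01, where 0.886% of all 23366 genes did so for old against young, 0.753% for old-OSKM against old and 0.625% for old-OSKM against young. With 0.886% or less of genes called, a count of 0 among 8 is near the background. At a raw limma p under 0.05, which 5.52%, 8.07% and 5.07% of genes reached in the same order, the count was also 0 of 8. An adjusted p under 0.05 was reached by 0 of 8 genes, and by 0.0813%, 0.00428% and 0.0428% of all genes. The lowest and highest values of the groups overlapped for 8 of 8 genes in every comparison, and 2.71%, 1.73% and 1.9% of all genes did not overlap.

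Srebf2, the activator, varied least. Its level was 1.22, 1.02, 1.15 and 0.92 log2 RPKM in young mice 1 to 4, 1.09, 1.05, 1.16, 1.13 and 1.13 in old mice 1 to 5, and 1.12, 1.20, 1.11 and 1.02 in old-OSKM mice 1 to 4. The old mice lay within the range of the young mice, and so did the old-OSKM mice. The log2 difference of old from young was 0.03 (SE 0.06, 95% interval -0.10 to 0.17, limma p = 0.608, exact permutation p = 0.619), and that of old-OSKM from old was -0.002 (interval -0.14 to 0.14, limma p = 0.976, exact permutation p = 0.968). Changes in Srebf2 mRNA of 1.5-fold therefore lay outside the interval in both comparisons. The mRNA level does not show how much of the protein was processed.

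Hmgcs1 encodes the cytosolic HMG-CoA synthase, near the entry of the mevalonate pathway. It read 1.29, 1.05, 1.43 and 0.95 log2 RPKM in young mice 1 to 4, 0.92, 1.19, 1.03, 0.86 and 1.06 in old mice 1 to 5, and 1.14, 1.11, 0.88 and 0.64 in old-OSKM mice 1 to 4. The mean was highest in young mice and lowest in old-OSKM mice, with overlap among all 3 groups. Old differed from young by -0.17 on the log2 scale (SE 0.12, interval -0.44 to 0.10, limma p = 0.200, exact permutation p = 0.190) and old-OSKM from young by -0.24 (SE 0.13, interval -0.53 to 0.05, limma p = 0.0959, exact permutation p = 0.229, adjusted p = 0.706). This last was the smallest p of any of the 8 genes in any comparison. It rested on which mice were included, since Hmgcs1 reached a raw p under 0.05, though no call, without young 4.

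Idi1 isomerises isopentenyl diphosphate, and Fdps joins the resulting units into farnesyl diphosphate, the branch point between sterols and other isoprenoids. Idi1 read 0.98, 0.37, 0.76 and 0.02 log2 RPKM in young mice 1 to 4, 0.61, 0.61, 0.34, 0.22 and 0.31 in old mice 1 to 5, and 0.57, 0.78, 0.22 and -0.16 in old-OSKM mice 1 to 4. Fdps read 2.06, 1.43, 1.85 and 1.07 in young mice, 1.53, 1.68, 1.53, 1.6 and 1.43 in old mice, and 1.81, 1.99, 1.41 and -0.10 in old-OSKM mice, in the same order. In both genes the old mice sat in a narrow band that young and old-OSKM mice straddled, and old-OSKM 4 was the lowest of all 13. Fdps differed by -0.05 between old and young (SE 0.36, interval -0.84 to 0.75) and by -0.28 between old-OSKM and old (SE 0.36, interval -1.07 to 0.52, limma p = 0.461, exact permutation p = 0.794). For Fdps, then, a 1.5-fold difference in either direction lay inside the interval of the first comparison. Idi1 differed by -0.11 (interval -0.59 to 0.36) and -0.06 (interval -0.54 to 0.41).

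Fdft1 encodes squalene synthase, the first enzyme committed to sterols, and Sqle encodes squalene epoxidase, a flux-controlling step. Fdft1 read 1.24, 1.5, 1.27 and 1.19 log2 RPKM in young mice 1 to 4, 1.54, 1.38, 1.40, 1.34 and 1.12 in old mice 1 to 5, and 1.25, 1.44, 1.42 and 0.91 in old-OSKM mice 1 to 4. Sqle read 0.93, 0.72, 0.99 and 0.30 in young mice, 0.79, 0.70, 0.97, 0.81 and 0.74 in old mice, and 0.79, 0.91, 0.69 and 0.16 in old-OSKM mice. Apart from young 4 and old-OSKM 4, Sqle stayed between 0.69 and 0.99 in the other 11 mice. The difference of old-OSKM from old was -0.10 for Fdft1 (SE 0.12, interval -0.36 to 0.16) and -0.16 for Sqle (SE 0.16, interval -0.52 to 0.20, limma p = 0.343, exact permutation p = 0.397), the smallest p of the 8 in that comparison. Old differed from young by 0.06 (interval -0.20 to 0.32) for Fdft1 and 0.07 (interval -0.29 to 0.43) for Sqle.

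Lss cyclises squalene epoxide to lanosterol, and Cyp51 demethylates lanosterol. Lss read 0.50, 0.26, 0.24 and -0.23 log2 RPKM in young mice 1 to 4, 0.37, 0.13, 0.06, 0.22 and 0.02 in old mice 1 to 5, and -0.01, 0.43, 0.33 and -0.18 in old-OSKM mice 1 to 4. Cyp51 read 0.14, -0.22, 0.40 and -0.40 in young mice, 0.04, 0.06, 0.10, -0.08 and -0.08 in old mice, and 0.03, 0.02, -0.14 and -0.48 in old-OSKM mice. The group means of Lss ran from 0.19 in young to 0.14 in old-OSKM mice. Old-OSKM differed from old by -0.02 for Lss (SE 0.16, interval -0.36 to 0.33) and by -0.15 for Cyp51 (SE 0.15, interval -0.49 to 0.19, limma p = 0.355, exact permutation p = 0.254).

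**Figure D1:**
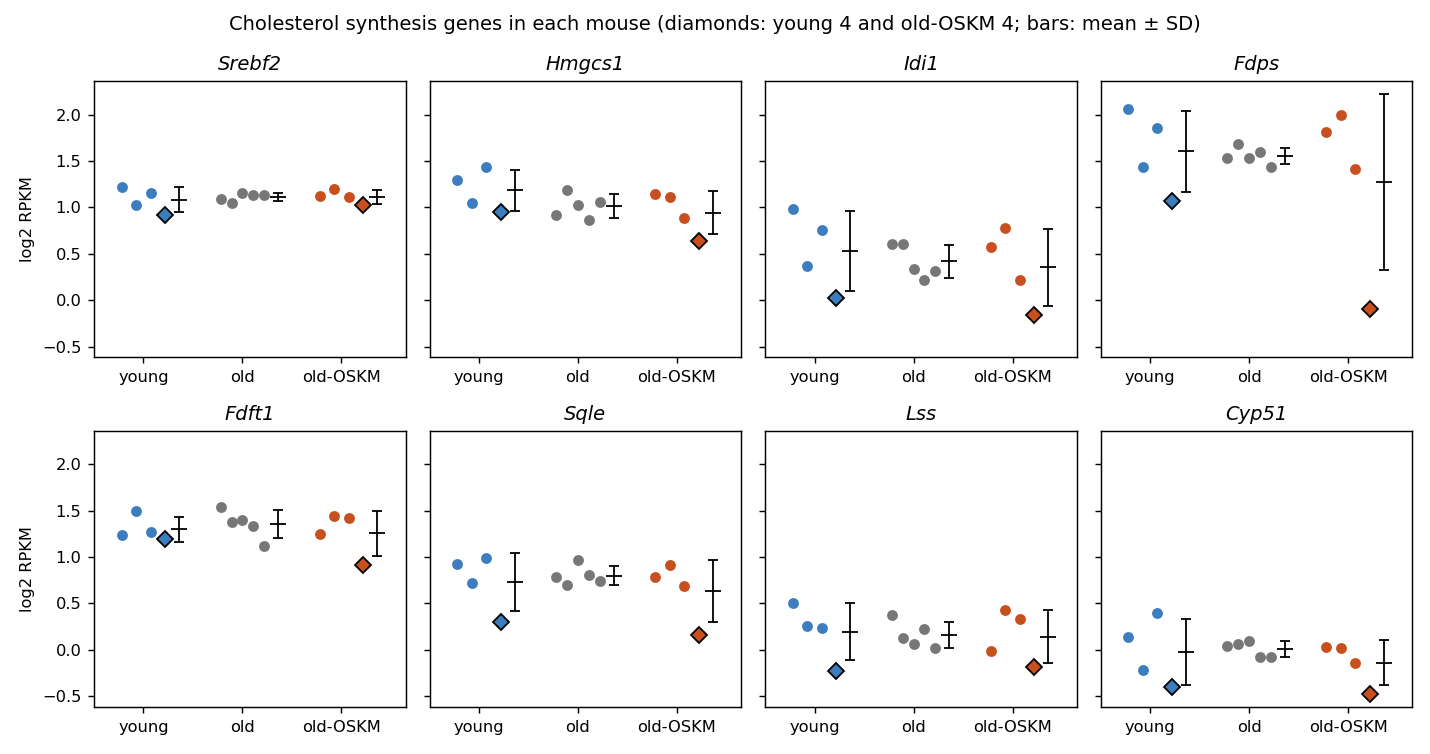
Level of each of the 8 genes in log2 RPKM (vertical axis) by group (horizontal axis), 1 point a mouse, with the group mean ± SD beside the points (young n = 4, old n = 5, old-OSKM n = 4). The groups overlap in every panel, the old mice are the tightest group for Fdps, and the diamonds, young 4 and old-OSKM 4, are the lowest points of their groups in all 8 panels.

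Across the list, the median log2 difference was -0.002 for old against young, with 4 genes higher and 4 lower, beside a median of 0.001 over all genes. For old-OSKM against old it was -0.08, with 8 of 8 genes lower, beside -0.04 over all genes, but without old-OSKM 4 the median was 0.03 and 6 of 8 genes were higher. For old-OSKM against young it was -0.11, with 7 of 8 genes lower, beside -0.04, and without old-OSKM 4 it was 0.06 with 5 of 8 genes higher. The old mice are in the first and second comparisons and the old-OSKM and young mice are each shared as well, so the 3 sets of values are not independent. The 95% interval lay within 1.5-fold on both sides for 6 of 8 genes for old against young, 7 of 8 for old-OSKM against old and 6 of 8 for old-OSKM against young. The exceptions were Fdps in all 3 comparisons, and Idi1 in both comparisons with young mice.

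**Figure D2:**
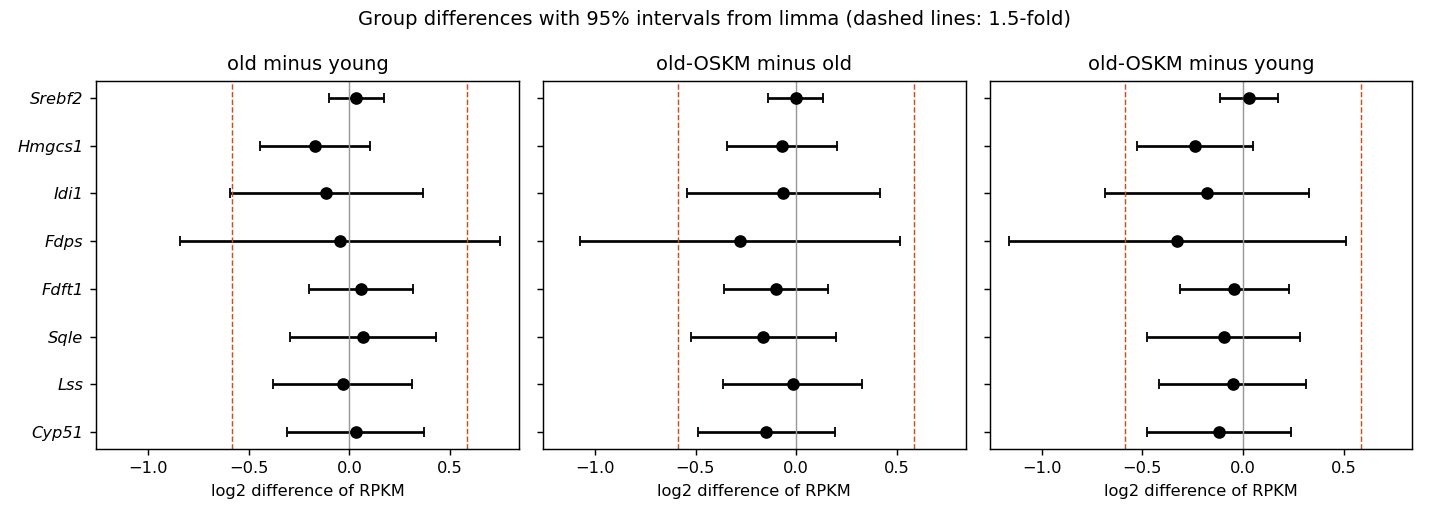
Log2 differences between groups (horizontal axis) for the 8 genes (vertical axis) in the 3 comparisons, with 95% intervals from limma over 13 mice. Every interval includes 0, and the intervals of Fdps are the widest, reaching from -1.07 to 0.52 for old-OSKM against old, past the lower of the dashed lines at 1.5-fold.

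Single mice stood apart across the whole list. Old-OSKM 4 was the lowest of its group for 8 of 8 genes and the lowest of all 13 mice for 6 of them. It was also the lowest of its group for 46.2% of the 8410 genes with a mean log2 RPKM over 0. Its level differed from the mean of the other 3 old-OSKM mice by a median of -0.46 on the log2 scale over the 8 genes, from -0.12 for Srebf2 to -1.84 for Fdps, where the median over the 8410 genes was -0.08. Young 4 was likewise the lowest young mouse for 8 of 8 genes (34.4% of the 8410 genes), with a median difference of -0.53 from the other 3 young mice, from -0.15 for Fdft1 to -0.71 for Fdps, against -0.02 over the 8410 genes. These mice were picked out after their values were seen, and no test was made of them.

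The residual spread of the 8 genes around their group means had a median of 0.24 on the log2 scale, against 0.15 for the 8410 genes, and ran from 0.09 for Srebf2 to 0.58 for Fdps. Within groups, the median SD of the 8 genes was 0.31 in young, 0.12 in old and 0.26 in old-OSKM mice. The corresponding medians for the 8410 genes were 0.12, 0.10 and 0.20. With young 4 and old-OSKM 4 left out, the SD of the 8 genes was 0.17 in young and 0.13 in old-OSKM mice, beside 0.10 and 0.11 for the 8410 genes. A difference in spread between groups was not tested.

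The same mice were also low for the wider pathway. For 11 further enzymes of cholesterol synthesis (Acat2, Mvk, Pmvk, Mvd, Tm7sf2, Msmo1, Nsdhl, Hsd17b7, Ebp, Sc5d and Dhcr7), old-OSKM 4 was the lowest of its group in 10 of 11, by a median of -0.60 against the other 3, and young 4 was the lowest of its group in 10 of 11, by a median of -0.41. Mvk, the mevalonate kinase, differed from the other old-OSKM mice by -1.28 in old-OSKM 4, and Dhcr7, which carries out a final reduction to cholesterol, by -1.23. In all, 4 of 11 enzymes were more than 1 log2 unit lower in that mouse, as were 1.78% of the 8410 genes. No enzyme of the 11 reached a raw limma p under 0.05 in any of the 3 comparisons, and their smallest p was 0.059, for old-OSKM against young.

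**Figure D3:**
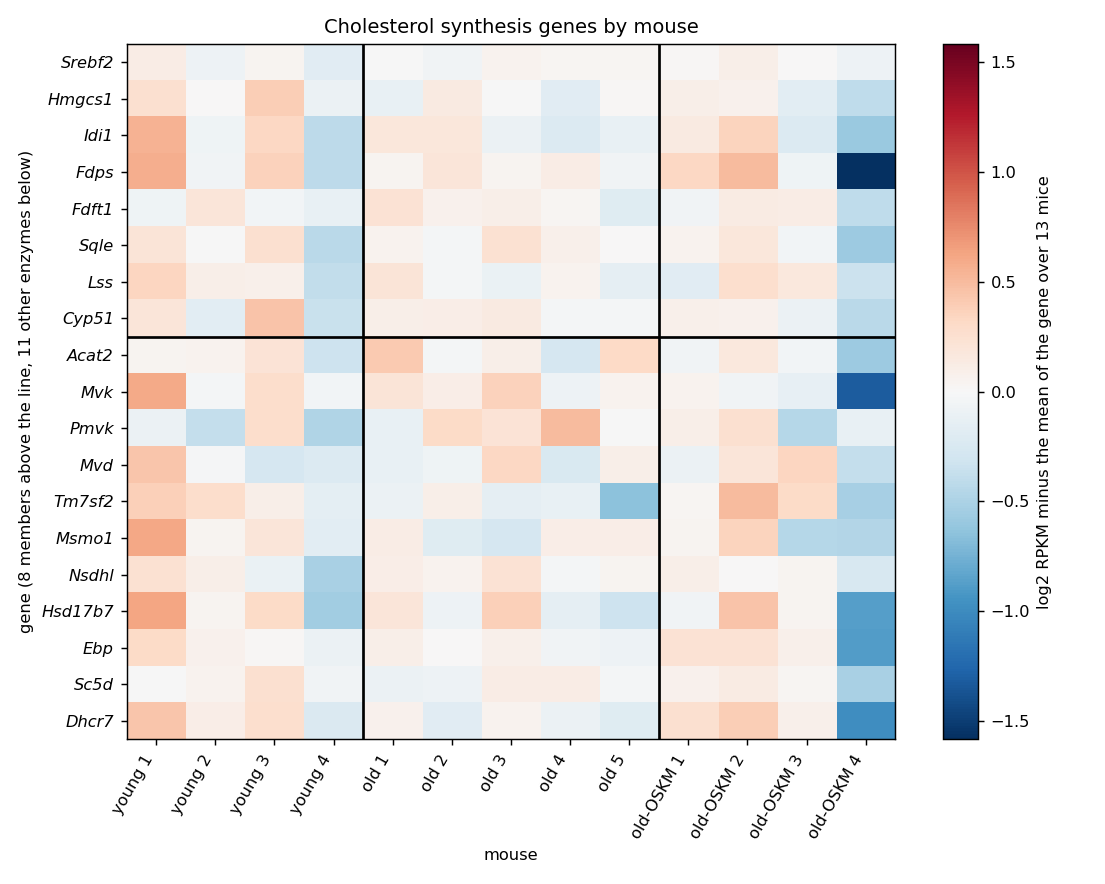
Level of 19 cholesterol synthesis genes (rows, the 8 genes above the line and the 11 further enzymes below) in 13 mice (columns), as log2 RPKM minus the mean of each gene over the mice. Old-OSKM 4 and young 4 are the bluest columns in both parts. Fdps in old-OSKM 4, at -0.10 log2 RPKM, is the darkest cell, while young 1, young 3 and old-OSKM 2 are the reddest.

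The mean of the 8 genes and the mean of the 11 further enzymes went together from mouse to mouse, with Pearson r = 0.973 and Spearman rho = 0.934 (n = 13 mice). With old-OSKM 4 and young 1 left out, the 2 mice farthest from the median, r was 0.931 and rho 0.891 (n = 11), and without old-OSKM 4 and young 4 they were 0.896 and 0.891. With each group centred on its own mean, r was 0.972. The points share libraries and one normalization, and the values are given as a description. Relative to the mean over mice, the 8 genes stood at 0.27 in young 1, 0.23 in young 3 and 0.21 in old-OSKM 2, the highest 3 mice, and at -0.55 in old-OSKM 4 and -0.30 in young 4, the lowest.

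**Figure D4:**
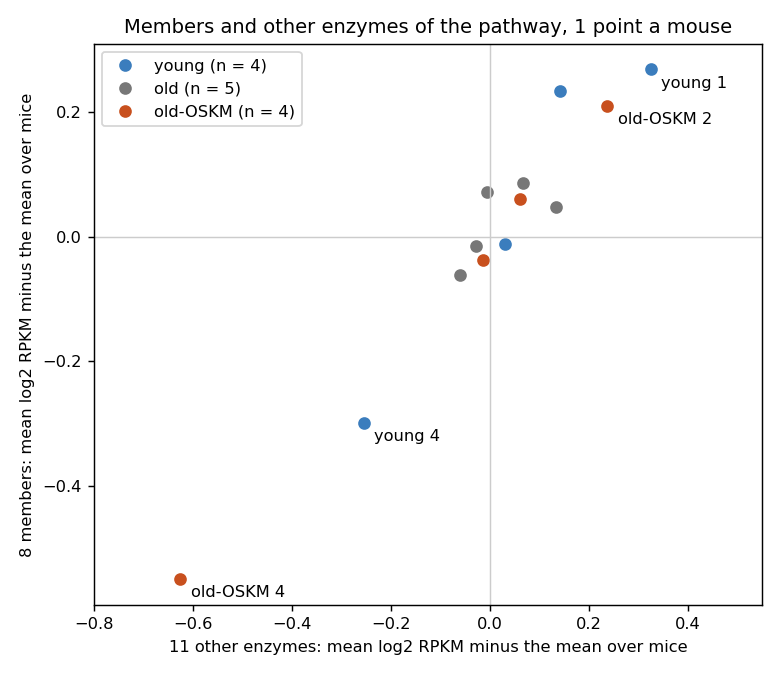
Mean log2 RPKM of the 8 genes (vertical axis) against that of the 11 further enzymes (horizontal axis), each minus its mean over mice, 1 point a mouse coloured by group. The old mice, young 2, old-OSKM 1 and old-OSKM 3 lie near 0, and the other young and old-OSKM mice lie toward both ends, with old-OSKM 4 at -0.63 and -0.55 and young 1 at 0.32 and 0.27 (horizontal, then vertical).

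Between single genes, the 28 pairwise correlations over 13 mice had a median r of 0.696, and 28 of 28 were positive. Leaving out old-OSKM 4 gave a median of 0.647 with 26 positive, and leaving out young 4 as well gave 0.498 with 22 positive, so part of the shared variation rested on these 2 mice. Idi1 and Fdps, which act in succession, had the highest r of the 28 pairs without these mice, 0.882 (n = 11). Other successive steps were not linked in this way in the same mice. There, r was -0.245 for Fdps and Fdft1, -0.159 for Fdft1 and Sqle, 0.223 for Sqle and Lss, and 0.055 for Lss and Cyp51. Fdft1 was the least linked, with a median r with the other 7 genes of 0.448 over 13 mice, 0.049 without old-OSKM 4 and -0.245 without young 4 as well.

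Old-OSKM 4 and young 4 also differed from the rest of their groups outside this pathway. Over the 8410 genes, the median correlation of old-OSKM 4 with the other mice was 0.895, against 0.960 to 0.982 for the other 12 mice. In old-OSKM 4, 7 of 7 islet markers were the highest of the group (summed level 505 RPKM, where young mice spanned 151 to 312, old 171 to 391 and old-OSKM 78.6 to 505), as were 5 of 6 fibroblast markers (70.4 RPKM, where young mice spanned 25.5 to 51.9, old 19.1 to 24.7 and old-OSKM 24.98 to 70.4) and 5 of 5 endothelial markers (20.8 RPKM, where young spanned 10.3 to 16.99, old 9.06 to 11.1 and old-OSKM 10.4 to 20.8). Acinar markers were the lowest of the group in 8 of 15, near the 46.2% of the 8410 genes, and the highest in 2, Bhlha15 at 3.79 log2 RPKM and Rbpjl at 4.2, its highest value in the 13 mice. In young 4, 6 of 6 fibroblast, 5 of 5 endothelial and 5 of 6 macrophage markers were the highest of the young mice. The share of all genes that were highest of the group in these mice was not computed, so the counts of highest markers have no background beside them. Young 3, among the highest mice for the 8 genes, carried hepatocyte transcripts at a summed level of 74.9 RPKM over 8 markers, against 1.48 to 7.58 in the other mice, and old-OSKM 1 carried the highest adipocyte level, at 7.53 RPKM over 6 markers. The part of these differences in the levels of the 8 genes was not tested.

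Genes with other roles in sterol balance were described from further lists. Of 13 genes of sterol sensing and regulation, 1 reached a raw limma p under 0.05 for old against young, 1 for old-OSKM against old and 0 for old-OSKM against young. Over all genes, 5.52%, 8.07% and 5.07% reached that p in these comparisons, so 1 of 13 is near the background. Mbtps1, a protease that cuts SREBP proteins in the Golgi, differed between old and young mice by -0.15 on the log2 scale (SE 0.05, limma p = 0.0175, exact permutation p = 0.0159, adjusted p = 0.695), with old mice at 1.84 to 2.03 and young mice at 2.04 to 2.13. Rnf145, a ubiquitin ligase of sterol sensing, differed by 0.33 between old-OSKM and old (SE 0.14, limma p = 0.0388, exact permutation p = 0.0476). It read 1.71 log2 RPKM in old-OSKM 4 and 0.97 to 1.1 in the other 3, and without that mouse the difference was 0.16. Of 9 isoprenoid genes outside sterol synthesis, and of 8 genes of fatty acid synthesis driven mainly by SREBP-1, 0 reached that p in any comparison. In old-OSKM 4 the fatty acid list deviated from the other 3 mice by a median of -0.24, with Fasn, the fatty acid synthase, at -0.63 and Acly, the ATP citrate lyase, at 0.36.

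In the same 2 mice the uptake and transport genes had medians on the other side of 0. In old-OSKM 4 the 11 genes of uptake and intracellular transport deviated from the other 3 old-OSKM mice by a median of 0.27, and in young 4 from the other 3 young mice by 0.22. Lrp1, a large receptor for remnant lipoproteins, was 1.09 above the other old-OSKM mice in old-OSKM 4 and 0.62 above the other young mice in young 4. Gramd1a, a carrier of cholesterol from the plasma membrane to the endoplasmic reticulum, was 0.96 above in old-OSKM 4. Across the 13 mice, r with the mean z-score of the 8 genes was lowest for Gramd1a (-0.82), Abca1 (-0.80) and Lrp1 (-0.79) among the pathway genes compared. Without old-OSKM 4 these values were -0.62, -0.63 and -0.52 (n = 12). Other uptake and transport genes were mixed, with Stard3 at -0.69, Scarb1 at -0.58, Lipa at -0.42 and Npc2 at -0.18. Vldlr stood at 0.10, Gramd1b at 0.17 and Osbp at 0.48. Abca1, a cholesterol exporter, is from the efflux list, where Abcg1 stood at 0.00, Soat1 at 0.43 and Nceh1 at 0.67.

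**Figure D5:**
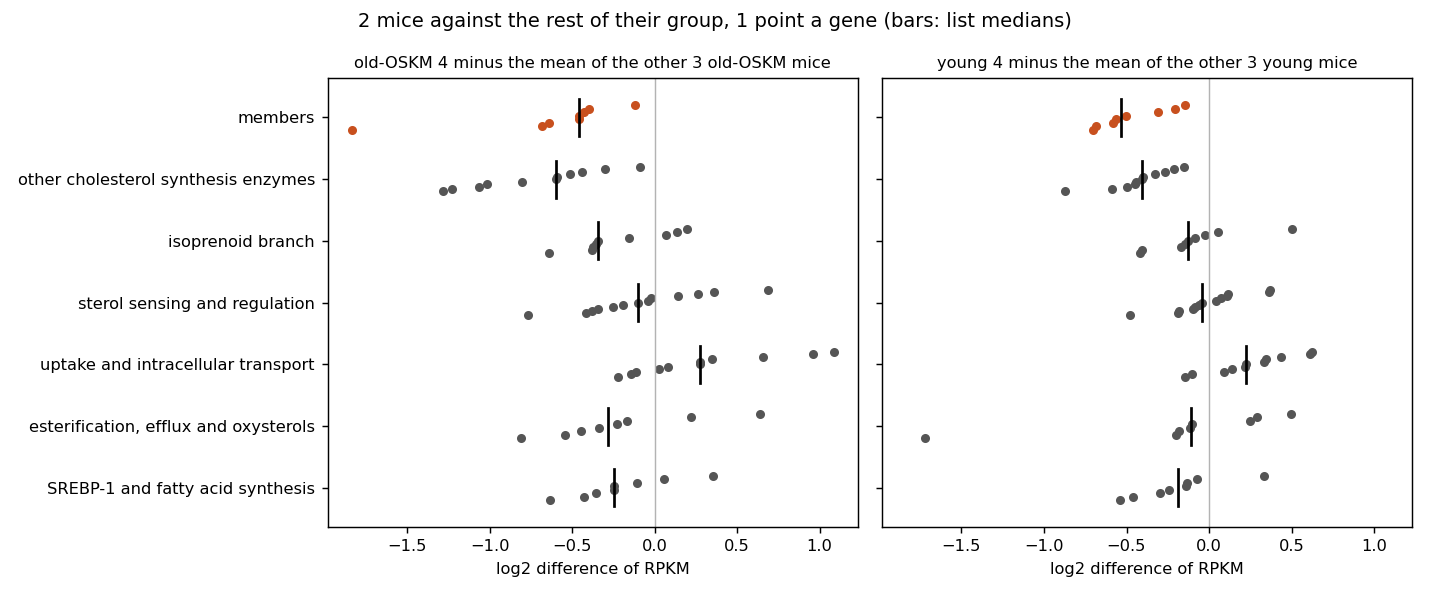
Log2 difference of old-OSKM 4 (left) and young 4 (right) from the mean of the other 3 mice of their group (horizontal axis), 1 point a gene, by pathway list (vertical axis), with bars at list medians and the 8 genes on the top row. The synthesis lists lie left of 0, with medians of -0.46 and -0.60 in old-OSKM 4 and -0.53 and -0.41 in young 4, and the uptake list lies mostly right of 0, with medians of 0.27 and 0.22.

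Among the 11 uptake and transport genes, 1 met the 1.5-fold and p under 0.01 rule for old-OSKM against old, as did 0.753% of all genes. None of the 11 met it for old against young or for old-OSKM against young, where 0.886% and 0.625% of all genes did. The gene that met it was Stard4, a cytosolic sterol carrier that SREBP-2 is known to induce. It read -0.84, -1.48, -1.5 and -1.05 log2 RPKM in young mice 1 to 4, -1.41, -1.47, -1.98, -2.75 and -2.33 in old mice 1 to 5, and -1.27, -1.0, -1.21 and -0.51 in old-OSKM mice 1 to 4. Old-OSKM mice lay above every old mouse, at a difference of 0.99 (SE 0.28, limma p = 0.00458, exact permutation p = 0.0159, adjusted p = 0.547), a fold of 1.98. Old differed from young by -0.77 (SE 0.28, limma p = 0.0187, exact permutation p = 0.0952, adjusted p = 0.707, fold 0.587), with overlap, and this shares the old mice with the other comparison. Leaving out old-OSKM 4 gave 0.82, leaving out old-OSKM 2 gave 0.99 and leaving out old 5 gave 0.90, and in each of these fits the raw p was above 0.01, so the call was lost. The difference of old from young met the rule without old 1, at -0.91, or without old 2, at -0.90.

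Further uptake genes reached a raw limma p under 0.05 without meeting that rule. With Stard4 counted, 1 of the 11 was higher and 1 lower at that p for old against young. For old-OSKM against old 2 were higher and 1 lower, and for old-OSKM against young 1 was higher. Over all genes, 5.52%, 8.07% and 5.07% reached that p in the same order. Vldlr, the very low density lipoprotein receptor, differed between old and young mice by 0.28 (SE 0.07, limma p = 0.00272, exact permutation p = 0.0317, adjusted p = 0.386), at 1.52 to 1.84 against 1.35 to 1.53. Old-OSKM differed from old by 0.57 for Lrp1 (limma p = 0.0361, exact permutation p = 0.0476) and by -0.23 for Gramd1b, another sterol carrier (limma p = 0.0171, exact permutation p = 0.0794). Old-OSKM differed from young by 0.29 for Npc2, which moves cholesterol out of lysosomes (limma p = 0.0174, exact permutation p = 0.0571). Npc2 was highest in old-OSKM 1, at 1.83 log2 RPKM, the mouse with the highest summed level of 6 macrophage markers (38.2 RPKM), and without it the difference was 0.18. Lrp1 in old-OSKM mice ran from 1.29 to 2.55, its highest value was that of old-OSKM 4, and without that mouse the difference from old was 0.30. Lrp1 was above 1.8 log2 RPKM in old-OSKM 1, old-OSKM 4 and young 4, the 3 mice with the highest mean of 6 fibroblast markers (0.49, 1.04 and 0.86 above the mean over mice, on the log2 scale). The fibroblast markers summed to 19.1 to 24.7 RPKM in old and 24.98 to 70.4 in old-OSKM mice, and the macrophage markers to 9.06 to 15.7 and 13.8 to 38.2. Their part in the Lrp1 and Npc2 differences was not tested.

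Of 8 genes of esterification, efflux and oxysterol formation, Soat2 met the rule for old against young, as did 0.886% of all genes. For old-OSKM against old and against young 0 of the 8 met it, beside 0.753% and 0.625% of all genes. A raw limma p under 0.05 was reached by 1, 1 and 2 of the 8 genes in the same order, beside 5.52%, 8.07% and 5.07% of all genes. Soat2, which esterifies cholesterol, read -1.66, -2.34, -2.44 and -3.87 log2 RPKM in young mice 1 to 4, -1.41, -0.97, -1.92, -1.63 and -0.25 in old mice 1 to 5, and -1.69, -1.73, -0.95 and -1.68 in old-OSKM mice 1 to 4. The difference of old from young was 1.34 (SE 0.43, limma p = 0.00957, exact permutation p = 0.0317, adjusted p = 0.610), with overlap of the groups. The rule was no longer met when any of 11 of the 13 mice was left out (0.91 without young 4), nor in a fit of these 2 groups alone. Old-OSKM differed from young by 1.07 for Soat2 (limma p = 0.0382, exact permutation p = 0.114), and by 0.64 without young 4. Ch25h, which makes 25-hydroxycholesterol, differed by 0.79 between old-OSKM and old (SE 0.31, limma p = 0.0268, exact permutation p = 0.0317) and by 0.93 between old-OSKM and young (SE 0.33, limma p = 0.0162, exact permutation p = 0.0571). Its levels were very low, at -3.42 to -2.20 log2 RPKM in young, -3.38 to -2.18 in old and -2.23 to -1.62 in old-OSKM mice. In these 6 further lists, 0 genes had an adjusted p under 0.05 in any comparison, a level reached by 19, 1 and 10 of all 23366 genes.

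Beyond the pathway, the genes whose pattern over the 13 mice was most like the mean z-score of the 8 were sought among 8401 genes. Tmem97, a sterol-regulated membrane protein, came first with r = 0.966, followed by Lrpprc, a mitochondrial RNA-binding protein, at 0.962 and Sec13, a coat protein of vesicles leaving the endoplasmic reticulum, at 0.960. The next were 2610507B11Rik, Sec14l4, Shmt2, Tex2, Mdh2, Gna11 and Sardh, down to r = 0.949. Of these, Shmt2, Mdh2 and Sardh encode mitochondrial enzymes of serine, malate and sarcosine metabolism. Among the pathway genes, Dhcr7 stood highest, at rank 66 (r = 0.904). The other further enzymes of cholesterol synthesis that were ranked stood lower, Ebp at rank 327, Sc5d at 854 and Msmo1 at 1246. Genes outside the pathway lists thus followed the 8 more closely than these enzymes did. The median r over the 8401 genes was 0.153 and the 99th percentile 0.896. Without old-OSKM 4, r was 0.949 for Tmem97 and 0.975 for Lrpprc (n = 12).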

How the data were processed

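RNA was sequenced from whole pancreas after rRNA depletion with a kit that does not keep strand, 1 library for each of 13 mice. The authors aligned paired-end reads to mm10 with STAR (version 2.3.0e in the submitters' processing notes), estimated isoform RPKM with Casper, leaving out reads that mapped to many places, summed it per Entrez gene and deposited log2 RPKM after quantile normalization. The deposited log2 values of 23366 genes were used as they are. After sorting, the largest gap between mice at any rank was 0.0116, no 2 mice held identical values, and no column was left unused. The study's methods state 1 nominal read number for all samples. Read totals of single mice were not used here and the values hold no counts, so counting error per value was not computed, and the total-read correction of the study is not part of the values. No source states that the mice were of separate litters, so p-values measure the spread between these mice.

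Groups followed the labels. Differences were fitted with limma 3.58.1 in R 4.3.3 on all genes and 3 groups together, with Benjamini-Hochberg adjustment over all genes and two-sided tests. The thresholds were those of the study, a change of more than 1.5-fold in either direction together with p below 0.01 before adjustment. The fit was tested on simulated data. Exact permutation tests over mice (scipy 1.17.1) could not give a p below 0.0159 for 5 against 4 mice or 0.0286 for 4 against 4, so they were read at 0.05. Symbols and positions came from RefSeq GRCm38.p6. Named genes were the 8 genes, list genes with a raw p under 0.05, and the 10 genes of most like pattern. Genes with a mean log2 RPKM over 0 served for comparisons of spread and pattern. Further genes were named for their deviation in old-OSKM 4 or their correlation, after their values were seen. The 8 genes and the lists were chosen with earlier results of these data known. Some pathway genes are not reported here.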

Additional observations from a re-analysis of the deposited data

Results flagged for a closer look

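Of 51 group-by-gene sets of values examined for a mouse far from the others, 3 stood out, where chance gives about 1 in 20, and 0 of the 24 sets from the 8 synthesis genes did. Lrp1 in young 4 was 1.93 log2 RPKM, far above the other young mice. Rnf145 in old-OSKM 4 was 1.71 log2 RPKM, above the other old-OSKM mice. Soat2 in old-OSKM 3 was -0.95 log2 RPKM, above the other old-OSKM mice.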

How the results depend on the processing

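The counts of 0 called genes among the 8 held under every alternative run in the 3 comparisons. The alternatives included a second quantile normalization, median centring, pseudocounts of 1 and 0.1, a filter on low values, fits of 2 groups, trended variances, covariates, permutation tests, other thresholds and each mouse left out. The largest log2 difference in the main fit was -0.32, for Fdps for old-OSKM against young, which is less than 1.5-fold. Alternatives that leave the differences unchanged, such as fits of 2 groups, trended variances and permutation tests, therefore could not give a call. The median of the 8 differences did not keep its sign. With each mouse left out, it ran from -0.14 to 0.075 for old against young. It ran from -0.18 to 0.030 for old-OSKM against old and from -0.24 to 0.059 for old-OSKM against young. The filter on low values removed Cyp51. The signs of the differences, whose 95% intervals all included 0, were not stable. Leaving out each mouse in turn turned signs within these ranges of the log2 difference. For old against young they were Cyp51 -0.096 to 0.17, Fdps -0.22 to 0.10, Idi1 -0.29 to 0.035, Lss -0.17 to 0.070, Sqle -0.078 to 0.15, Srebf2 -0.019 to 0.081. For old-OSKM against old they were Fdft1 -0.16 to 0.014, Fdps -0.51 to 0.18, Hmgcs1 -0.13 to 0.031, Idi1 -0.21 to 0.11, Lss -0.11 to 0.090, Srebf2 -0.030 to 0.028. For old-OSKM against young they were Cyp51 -0.25 to 0.020, Fdft1 -0.10 to 0.072, Fdps -0.56 to 0.13, Lss -0.19 to 0.056, Sqle -0.24 to 0.064, Srebf2 -0.021 to 0.079. Leaving out old-OSKM 4 and young 4 together, chosen after seeing the data, gave -0.078 for Sqle, -0.019 for Srebf2 and -0.096 for Cyp51 for old against young, 0.031 for Hmgcs1, 0.028 for Srebf2, 0.11 for Idi1, 0.18 for Fdps, 0.014 for Fdft1 and 0.090 for Lss for old-OSKM against old, and 0.035 for Fdft1 for old-OSKM against young. Hmgcs1 then had a raw p under 0.05 for old against young. With the mean z-score of all genes as a covariate, the values were 0.00256 for Sqle, 0.041 for Srebf2, 0.077 for Idi1, 0.097 for Fdps, 0.049 for Fdft1 and 0.19 for Lss for old-OSKM against old, and 0.053 for Sqle, 0.011 for Fdps, 0.092 for Fdft1 and 0.13 for Lss for old-OSKM against young. A term for the run in which sample identifiers fall, which no source calls a batch, gave -0.00456 for Fdft1 for old against young. The cause was not tested. The Stard4 call was lost with a pseudocount of 1 (log2 difference 0.25), with the z-score covariate (0.86) and without both low mice (0.82). The Soat2 call was lost with pseudocounts of 1 (0.29) and 0.1 (0.94), with the identifier term (1.32) and the z-score covariate (1.32), in a fit of 2 groups (1.34), and without any of 11 of the 13 mice (0.91 to 1.44). Ch25h met the rule for old-OSKM against young without young 1 (1.17). No paired analysis was possible because the labels give no shared replicate numbers. Stard4, Soat2 and Ch25h had log2 RPKM below 0 in every mouse, and their counting error could not be computed from values without counts.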
